A study of Mus musculus with 10 samples.

Results

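The first hour of warming in NIH3T3 cells, a mouse fibroblast line, is described by 2 samples: cells 1 h after a move from 33 to 38 °C, and cells of the same course at 0 h, still at 33 °C. They are 2 of 10 samples of total RNA from wild-type cells. Cells had been seeded at 37 °C for 4 h and kept at 33 °C for 16 h before the move. The other samples are the later times of the same course (3, 6 and 9 h) and 5 samples of the opposite course, in which cells kept at 38 °C were moved to 33 °C. Each time of each course is 1 sample, read out in 2 count columns from numbered series, 2 and 13 for warming, and the labels do not say what the numbers stand for, nor whether the columns are separate cultures. P-values therefore rest on single samples whose spread may be technical. The counts keep exons and introns apart. The genes described are those whose reads moved the same way in both series, by reads per 1000000 of the column total (CPM). Of 38087 genes in the table, 11272 had a mean of at least 1 CPM in exons, and 6884 of these (61.1%) moved the same way in both series. In introns 11696 genes reached that level and 8532 (72.9%) moved the same way.

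Intron reads come mostly from precursor RNA that has not yet been spliced, so they follow recent transcription and the pace of splicing, while exon reads come mostly from mature mRNA and follow the stock that has built up. Proteins unfold more readily in warm cells, and heat shock factor 1 (HSF1) then binds heat shock elements in promoters and drives the genes of cytosolic chaperones. Chaperones of the endoplasmic reticulum (ER) answer to other factors, through the ER stress element. Serum response factor (SRF), which drives genes of the actin cytoskeleton, binds a motif called the CArG box.

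The complete columns held 22403625 to 48004854 exon reads and 15313374 to 25233405 intron reads. Introns took 31.3% of the reads of series 2 and 36.6% of those of series 13 at 1 h, against 32.4% and 34.5% at 0 h. Of 12 fibroblast markers 11 were measured, with Fap listed at 0, and their sum was 24369 to 34012 CPM at 1 h and 25789 to 34645 CPM at 0 h. The 8 epithelial markers summed to 26.1 to 72.2 CPM at 1 h and 24.1 to 80.9 CPM at 0 h, with Krt5 and Cldn4 at 0, and the sums of the other marker lists (endothelial, immune, muscle, neural and fat cell) reached at most 19.7 CPM at either time. A change was called when the edgeR quasi-likelihood test gave an adjusted p under 0.05 and both series moved that way. For cooling, for warming minus cooling and for the exon-to-intron ratio, the adjusted p of this test was the only rule. With 1 sample per time, this test takes its spread from the scatter of the 3 to 9 h samples about a line in each course. Values after ± are standard errors of the log2 change, 1 h minus 0 h. Levels in CPM are not divided by gene length, so they compare times and not genes.

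Promoters are printed for 4 genes, to show the motifs tied to the heat shock, SRF and ER chaperone lists, described after them. Sequences are from RefSeq on GRCm38.p6, 250 bases before to 50 after the start of the gene, written 5′ to 3′ on the strand of the gene, with matches in capitals. Both strands were searched. The heat shock element was searched as GAANNTTCNNGAA or TTCNNGAANNTTC and the ER stress element as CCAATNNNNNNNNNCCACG. Hsph1 has 2 promoters in the table, and one that holds the motif is shown (chr5:149636266-149636565, minus strand). Chordc1 has overlapping matches (chr9:18292017-18292316, plus strand). Vcl carries a CArG box (chr14:20929148-20929447, plus strand), and Hspa5 an ER stress element (chr2:34771840-34772139, plus strand).
Hsph1: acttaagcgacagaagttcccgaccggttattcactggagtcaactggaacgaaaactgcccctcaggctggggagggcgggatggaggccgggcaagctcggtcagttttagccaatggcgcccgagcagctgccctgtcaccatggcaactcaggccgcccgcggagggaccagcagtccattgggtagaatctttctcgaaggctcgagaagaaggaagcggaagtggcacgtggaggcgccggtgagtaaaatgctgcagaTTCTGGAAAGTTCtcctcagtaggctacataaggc
Chordc1: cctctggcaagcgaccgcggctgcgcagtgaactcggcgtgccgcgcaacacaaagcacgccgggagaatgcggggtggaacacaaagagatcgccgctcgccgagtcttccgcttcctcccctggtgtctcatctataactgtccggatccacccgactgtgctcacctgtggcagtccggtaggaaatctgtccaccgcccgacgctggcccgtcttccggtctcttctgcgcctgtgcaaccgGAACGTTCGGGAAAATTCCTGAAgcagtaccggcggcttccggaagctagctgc
Vcl: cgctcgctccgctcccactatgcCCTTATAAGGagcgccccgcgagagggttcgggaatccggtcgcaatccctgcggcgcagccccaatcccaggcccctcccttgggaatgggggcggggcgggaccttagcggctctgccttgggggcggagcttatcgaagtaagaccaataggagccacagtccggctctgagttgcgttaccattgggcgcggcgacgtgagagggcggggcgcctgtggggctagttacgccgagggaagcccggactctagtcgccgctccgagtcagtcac
Hspa5: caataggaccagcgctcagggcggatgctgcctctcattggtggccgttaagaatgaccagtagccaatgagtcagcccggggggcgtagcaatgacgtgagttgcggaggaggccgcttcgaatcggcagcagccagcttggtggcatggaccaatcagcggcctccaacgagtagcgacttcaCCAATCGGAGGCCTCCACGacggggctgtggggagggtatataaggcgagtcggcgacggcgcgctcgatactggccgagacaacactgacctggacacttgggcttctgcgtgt
The heat shock element was found in 5 of the 30 heat shock genes with a promoter in the table (16.7%), against 0.662% of all 27025 genes with a promoter there. These were Hsph1, Chordc1, Dnajb6 and the neighbours Hspd1 and Hspe1. Hspa1a, Hspa1b, Dnajb1, Dnaja1, Ahsa2 and Bag3 were among the genes without a match. Of 42 genes with a promoter there that were called higher in exons, 1 held the element (2.38%). The CArG box was in 7 of 16 actin targets of SRF (43.8%), against 1.81% of all such genes. The ER stress element was in 8 of 18 ER chaperone genes (44.4%), against 0.137% of all such genes. A match is a description of the letters, and its absence says nothing of the factor.

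Far more genes were called in introns than in exons in this hour. Exon reads rose for 53 genes (0.47% of those tested) and fell for 29 (0.257%), and intron reads rose for 1715 (14.7%) and fell for 1775 (15.2%). Counts of every list below are to be read beside these shares. The median change among called genes was 1.79-fold for exon reads that rose and 1.69-fold for those that fell. For introns it was 1.39-fold and 1.37-fold. In bulk RNA, fewer cells of a type and less RNA per cell cannot be told apart. Without a test, 43 genes were past 1.5-fold higher in both series in exons (0.381%) and 27 lower (0.24%), and in introns 344 (2.94%) and 290 (2.48%). Across genes, the change in series 2 and the change in series 13 correlated with r = 0.74 for introns (11696 genes) and r = 0.48 for exons (11272 genes). BC031353 lies just outside the rule for introns, with a log2 change of 0.01 in series 2 and -0.58 in series 13. The count of exon calls depends on the model. It was 745, 763 and 756 without the warming sample of 3, 6 or 9 h, 46 without the cooling sample of 3 h, and 0 with the samples of 3 to 9 h fitted as one level (459 at an unadjusted p under 0.05, against 1482). Without a later sample, the line of its course fits the remaining samples exactly, so the spread comes from the other course alone. The warming leave-outs, here and in the lists below, are therefore nearly the same test. Intron calls numbered 448 with the samples of 3 to 9 h as one level and 1723 with DESeq2. With introns on the exon size factors 1608 genes rose and 1138 fell in introns (58.6% of calls higher, against 49.1%).

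**Figure D1:**
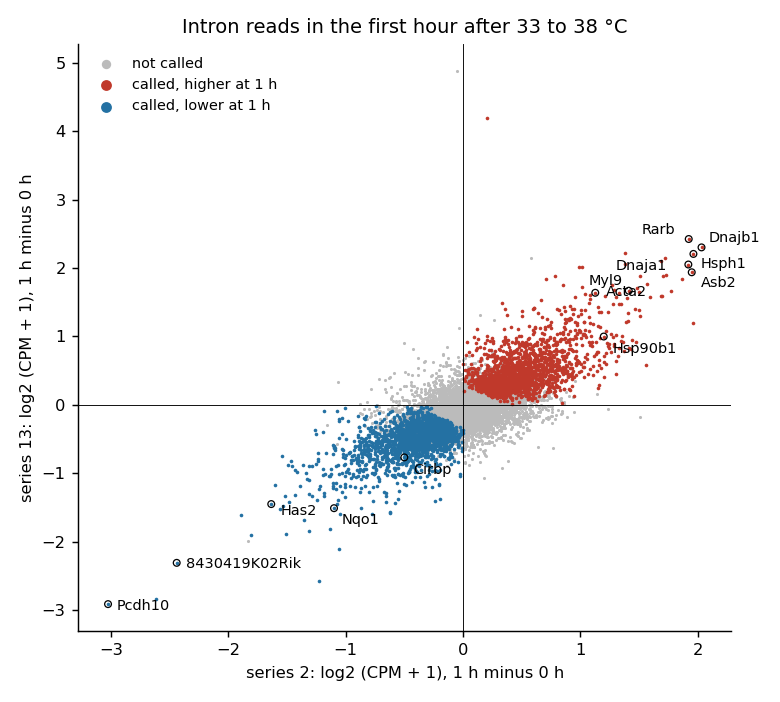
Change in intron reads in the first hour of warming, as log2 (CPM + 1) at 1 h minus 0 h, in series 2 (x axis) and series 13 (y axis), for 11696 genes, 1 point each. The 1715 genes called higher (red) lie at the upper right, with Dnajb1, Hsph1 and Rarb farthest out among those named, and the 1775 called lower (blue) at the lower left, with Pcdh10 farthest out.

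Genes of the heat shock list rose in introns and, for a smaller number, in exons. Intron reads rose for 25 of 36 measured genes and fell for none, with a median log2 change of 1.01, against -0.01 over all genes tested. Exon reads rose for 11 of 38 and fell for none, with a median of 0.32. The exon-to-intron ratio fell for 21 of 36 genes of the list, where 6.45% of all 10273 genes tested on that ratio fell and 4.54% rose. With 3 to 9 h fitted as one level, the count was 20 in introns and 0 in exons. Without the warming sample of 3, 6 or 9 h, 23 of 38 genes of the list were called higher in exons.

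Hsph1, an HSP110 chaperone that recharges HSP70, had intron levels of 505 and 681 CPM at 1 h in series 2 and 13, against 129 and 147 CPM at 0 h. Its log2 change in introns was 2.13 ± 0.07 (adjusted p = 2.08e-07). Its exon reads were 402 and 540 CPM at 1 h, against 152 and 153 CPM at 0 h, a 3.15-fold rise (1.66 ± 0.11, adjusted p = 0.0013). Dnajb1, the HSP40 cochaperone that brings clients to HSP70, had 264 and 313 CPM in exons at 1 h, against 98.0 and 83.9 CPM at 0 h. Its intron reads were 31.8 and 33.8 CPM at 1 h, against 7.03 and 6.06 CPM at 0 h, so that precursor rose 5.10-fold and exon reads 3.19-fold. The ratio of exon to intron reads of Dnajb1 fell by 0.68 on the log2 scale (adjusted p = 0.0294). Dnaja1, another HSP40 cochaperone, rose 4.07-fold in introns and 2.17-fold in exons.

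Hspa1b, an inducible HSP70 gene with no introns, had 34.9 and 45.5 CPM at 1 h, against 1.99 and 14 CPM at 0 h. The series agreed on direction and differed in size, since series 2 started lower. The fitted rise was 4.80-fold (2.26 ± 0.15, adjusted p = 0.0013). Its neighbour Hspa1a had 4.33 and 5.79 CPM at 1 h, against 0.239 and 2.69 CPM at 0 h (1.72 ± 0.22, adjusted p = 0.025). These genes are near-identical copies, and the sources used here do not tell to which of them a shared read went, so their separate values are uncertain.

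Hsp90aa1, the inducible cytosolic HSP90, had exon levels of 1610 and 1040 CPM at 1 h, against 1037 and 494 CPM at 0 h. Exon reads rose 1.75-fold and intron reads 3.23-fold, to 154 and 107 CPM at 1 h, against 58.6 and 24.9 CPM at 0 h. Bag3, a cochaperone that links HSP70 to autophagy, rose 1.73-fold in exons and by 1.65 ± 0.07 on the log2 scale in introns. Ahsa2, related to the HSP90 activator Ahsa1, rose 1.91-fold in exons and 3.91-fold in introns. Its span overlaps Usp34 on the other strand, and the sources used here do not tell whether the counts respect strand.

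For several chaperones the rise was called in precursor alone. Chordc1, an HSP90 cochaperone, had intron levels of 231 and 272 CPM at 1 h, against 95.4 and 79.7 CPM at 0 h (1.56 ± 0.07, adjusted p = 5.79e-07). Its exon reads were 83.0 and 79.6 CPM at 1 h, against 61.4 and 40.2 CPM at 0 h, and did not pass (adjusted p = 0.0661). Hspa8, the constitutive HSP70, rose 2.40-fold in introns, where its levels were 9.2 and 6.4 CPM at 1 h and 4.6 and 2.1 CPM at 0 h. Its exon change was 0.54 ± 0.18 and did not pass (adjusted p = 0.25). The mitochondrial chaperonin pair Hspd1 and Hspe1, which share one promoter region on opposite strands, rose 1.82-fold and 1.94-fold in introns. Not every gene of the list moved: Hsf1 itself had a log2 change of 0.02 in introns and 0.06 in exons, and Tcp1 and Cct2, subunits of the cytosolic chaperonin, had 0.08 and 0.05 in introns.

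**Figure D2:**
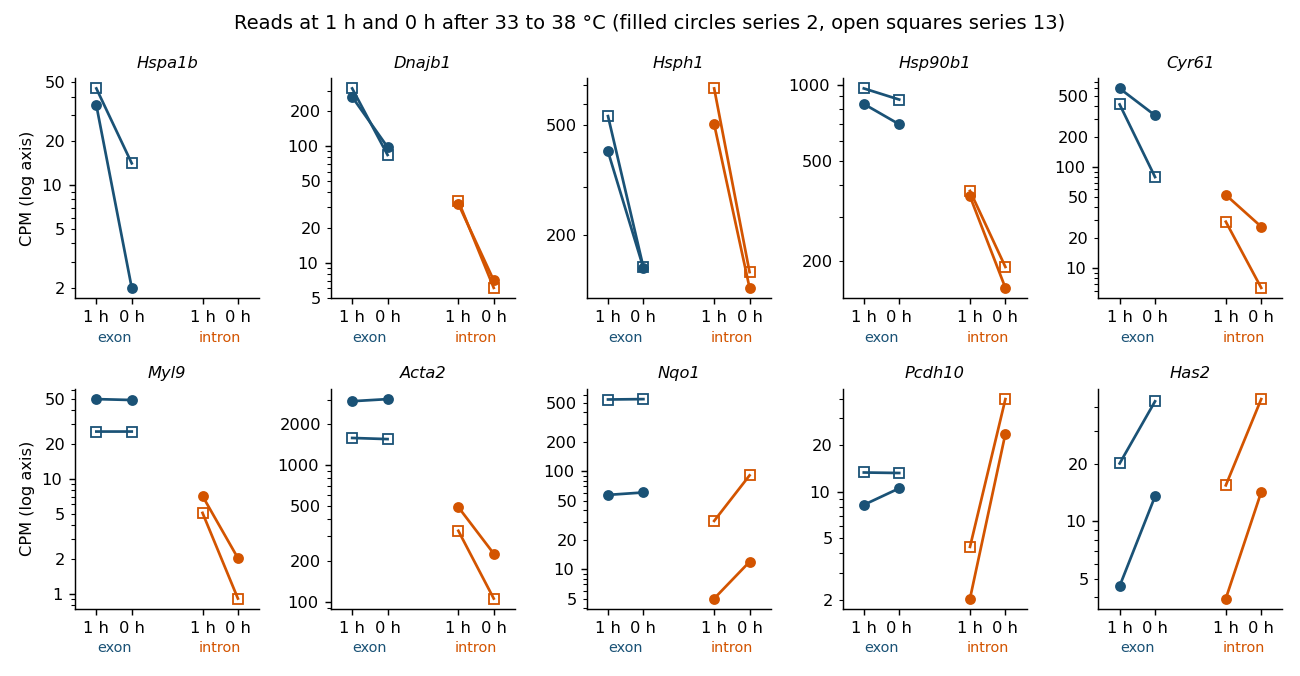
Levels in CPM (log axis) of 10 genes at 1 h (left of each pair) and 0 h after the move from 33 to 38 °C, for exon reads (blue) and intron reads (orange). Filled circles are series 2, open squares series 13, and a line joins the values of one series. Myl9 and Acta2 show higher intron levels at 1 h over nearly level exon reads, while Pcdh10 and Nqo1 show lower intron levels over nearly level exon reads in series 13.

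Beyond chaperones, exon reads that rose most by the smaller of the changes in both series belonged to genes of mixed roles. Ccdc117 had 83.1 and 101 CPM in exons at 1 h, against 30.6 and 28.7 CPM at 0 h (1.65 ± 0.11, adjusted p = 0.0013), and rose 2.74-fold in introns. Znfx1, a zinc finger helicase of antiviral defence, rose 2.19-fold in exons and 2.77-fold in introns, and overlaps Zfas1 on the other strand. Dedd2, a death effector domain protein, rose 2.91-fold in exons and 3.31-fold in introns. Creld1 rose from low levels, with exon values of 1.86 and 2.33 CPM at 1 h and 0.345 and 0.562 CPM at 0 h (2.16 ± 0.27, adjusted p = 0.0225). Arl4d, a small GTPase, rose 2.88-fold in exons. AC148011.1, a long intergenic noncoding RNA, rose 4.01-fold in exons and 3.36-fold in introns.

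Precursors of the actin targets of SRF rose nearly as a group, without a called change of their mature RNA. Intron reads rose for 18 of 20 measured genes, with a median log2 change of 0.90, and exon reads of 0 of 20 were called, with a median of -0.02. In exons 1 gene of the list was higher and 2 were lower at an unadjusted p under 0.05, and DESeq2 called 1 higher. Without the warming sample of 3, 6 or 9 h, 2 of the 20 were called higher in exons. The ratio of exon to intron reads fell for 17 of the 20. Acta2, smooth muscle actin, had intron levels of 492 and 330 CPM at 1 h, against 225 and 105 CPM at 0 h (1.35 ± 0.07, adjusted p = 9.41e-07). Its exon levels were 2927 and 1577 CPM at 1 h and 3032 and 1547 CPM at 0 h (-0.02 ± 0.06, adjusted p = 0.934). The fall of its ratio was -1.37 ± 0.09 on the log2 scale (adjusted p = 2.44e-05).

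Myl9, a myosin light chain, had intron levels of 7.11 and 5.07 CPM at 1 h, against 2.05 and 0.911 CPM at 0 h, a 4.28-fold rise. Its exon levels were 49.5 and 25.9 CPM at 1 h and 48.7 and 25.9 CPM at 0 h, so the values of each series nearly coincided. Vcl, which encodes the adhesion protein vinculin, had 558 and 946 CPM in introns at 1 h, against 367 and 354 CPM at 0 h (2.19-fold, adjusted p = 1.87e-06). Tropomyosin genes rose too in introns, Tpm1 2.49-fold and Tpm4 1.97-fold. Srf itself rose 2.57-fold in introns, and its exon change of 0.54 ± 0.12 did not pass (adjusted p = 0.102). Actb, the cytoplasmic beta actin, rose 1.34-fold in introns. With 3 to 9 h fitted as one level, 4 of the 20 genes were called higher in introns.

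Precursors of ER chaperone genes also rose nearly as a group. Intron reads rose for 19 of 20 measured genes, with a median log2 change of 0.56, and exon reads of 0 of 20 passed, with a median of 0.07. In exons 1 gene was higher and 0 lower at an unadjusted p under 0.05, DESeq2 called 0, and leaving out the warming sample of 3, 6 or 9 h gave 1 call higher. In both series 12 of the 20 were higher in exons and 2 lower, where 3077 and 3807 of all 11272 genes were. Hsp90b1, the HSP90 of the ER, had intron levels of 361 and 380 CPM at 1 h, against 157 and 190 CPM at 0 h (1.09 ± 0.06, adjusted p = 1.95e-06). Its exon levels were 839 and 967 CPM at 1 h and 697 and 874 CPM at 0 h (0.19 ± 0.06, adjusted p = 0.261). Creld2, an ER stress protein, rose 2.58-fold in introns, and Pdia4, a disulfide isomerase, 2.02-fold. Hspa5, the HSP70 of the ER, rose less, by 1.30-fold in introns, with 58.7 and 46.4 CPM at 1 h and 42.0 and 38.6 CPM at 0 h. With 3 to 9 h fitted as one level, 1 of the 20 was called.

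Target genes of p53, the stress-activated tumour suppressor, rose in introns in 13 of 17 cases, with a median log2 change of 0.58, and in exons 0 of 17 passed. At an unadjusted p under 0.05, 5 of the 17 were higher and 1 lower in exons, and DESeq2 called 0. Exon calls of the list numbered 5 higher and 1 lower without the warming sample of 3, 6 or 9 h. Fas, a death receptor, had intron levels of 14.7 and 45.1 CPM at 1 h, against 3.82 and 11.5 CPM at 0 h (1.98 ± 0.14, adjusted p = 9.79e-06). Both series rose by nearly the same fold from unequal levels. Its exon reads were 2.02 and 6.27 CPM at 1 h and 1.06 and 4.83 CPM at 0 h, and did not pass (adjusted p = 0.482). Mdm2, which targets p53 for degradation, rose 1.63-fold in introns. Cdkn1a, the cell cycle inhibitor p21, had 75.9 and 67.0 CPM in introns at 1 h and 33.7 and 56.3 CPM at 0 h, a 1.53-fold rise. With 3 to 9 h as one level, 4 of the 17 were called. For each list not yet named, that model left at most 2 intron calls in either direction.

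**Figure D3:**
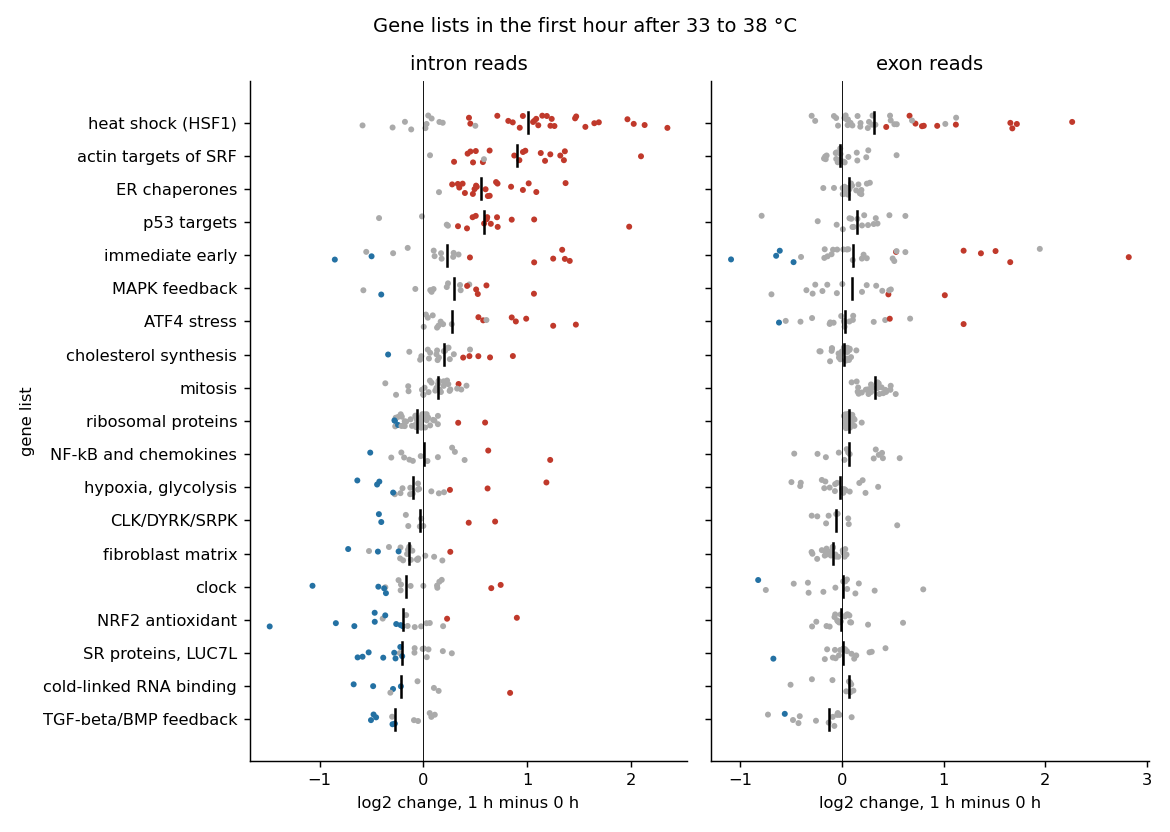
Log2 change at 1 h minus 0 h of the measured genes of 19 lists, in intron reads (left) and exon reads (right). Each point is a gene, red if called higher, blue if called lower and grey if not called, and the black bar is the list median. In introns the heat shock, SRF, ER chaperone and p53 lists lie mostly to the right of 0, and in exons most called points belong to the heat shock and immediate early lists.

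Immediate early genes, which answer stimuli without new protein synthesis, went both ways in exons. Exon reads rose for 6 of 29 and fell for 4, where 0.47% and 0.257% of all genes tested did. Intron reads rose for 6 of 18 and fell for 2, where 14.7% and 15.2% of all genes tested did. Falls in introns were thus no more frequent than over all genes. With DESeq2, and with series 2 and 5 alone, 3 genes rose and 0 fell in introns. Arc had exon levels of 2.50 and 27.9 CPM at 1 h, against 0.929 and 3.46 CPM at 0 h, with most of the fitted rise of 2.82 ± 0.23 carried by series 13 (adjusted p = 0.00314). Cyr61, a matricellular protein, had 598 and 415 CPM in exons at 1 h, against 324 and 79.5 CPM at 0 h (1.37 ± 0.10, adjusted p = 0.00173), and rose 2.66-fold in introns. Phlda1 rose 2.85-fold in exons and 2.53-fold in introns. Egr1 had 18.9 and 32.3 CPM at 1 h and 7.77 and 6.00 CPM at 0 h, and did not pass (1.94 ± 0.43, adjusted p = 0.103). Nr4a1, an orphan nuclear receptor, fell 2.13-fold in exons and 1.81-fold in introns. Klf2, Klf4 and Rhob also fell in exons, by 0.65, 0.61 and 0.48 on the log2 scale. The exon counts for this list were 3 higher and 0 lower with series 2 and 5 alone, 4 and 2 without the cooling sample of 3 h, and 11 and 4 without the warming sample of 3, 6 or 9 h.

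Among 16 genes of MAP kinase feedback, intron reads rose for 5 and fell for 1, where 14.7% and 15.2% of all genes tested did. With DESeq2, 2 of the 16 rose and 1 fell in introns. Exon reads rose for 2 of the 16, where 0.47% of all genes tested did. Errfi1, an inhibitor of the EGF receptor, had 102 and 65.7 CPM in exons at 1 h, against 60.5 and 23.3 CPM at 0 h (1.01 ± 0.15, adjusted p = 0.0302), and rose 2.09-fold in introns. Genes of the ATF4 stress response rose in introns in 7 of 17 cases and in exons in 2 of 19, while 1 fell. Atf3, a stress-induced transcription factor, rose 2.29-fold in exons and 2.38-fold in introns. Ddit3 (CHOP) rose 1.85-fold in introns, with no called exon change (0.07 ± 0.13, adjusted p = 0.867). Ppp1r15a (GADD34), which brings phosphatase to eIF2 alpha, fell 1.54-fold in exons. With series 2 and 5 alone, 2 genes of the ATF4 list and 1 of the MAP kinase list were called higher in introns. In exons neither list had a call without the cooling sample of 3 h. Without the warming sample of 3, 6 or 9 h, 5 genes of the ATF4 list were called higher and 2 lower in exons, and 4 and 1 of the MAP kinase list. P4ha1, a collagen prolyl hydroxylase from the hypoxia list, had 418 and 520 CPM in introns at 1 h, against 228 and 200 CPM at 0 h, a 2.27-fold rise.

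Among the genes named for large precursor rises, several had exon reads below the level tested. Rarb, a retinoic acid receptor, had intron levels of 25.7 and 19.7 CPM at 1 h, against 6.03 and 2.85 CPM at 0 h (2.39 ± 0.18, adjusted p = 1.03e-05). Its span overlaps Top2b on the other strand. Asb2, a ubiquitin ligase subunit, had 6.07 and 8.90 CPM at 1 h, against 0.830 and 1.59 CPM at 0 h (2.61 ± 0.26, adjusted p = 6.84e-05). Mrvi1, a target of cGMP signalling in smooth muscle, rose 4.38-fold, and the long intergenic noncoding RNA Gm13830 rose 4.43-fold. Gm12940 rose 4.12-fold and shares its span with Sfpq on the same strand, so their intron reads cannot be told apart here.

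Mature RNA that fell within the hour included that of regulators of several kinds. Yod1, a deubiquitinase, had exon levels of 9.4 and 9.1 CPM at 1 h, against 27.5 and 23.8 CPM at 0 h (-1.46 ± 0.11, adjusted p = 0.0026), and intron levels of 2.25 and 2.04 CPM at 1 h, against 8.41 and 7.49 CPM at 0 h. The falls were 2.76-fold in exons and 3.68-fold in introns. Has2, which makes hyaluronan, had 4.57 and 20.2 CPM in exons at 1 h, against 13.6 and 43.0 CPM at 0 h, a 2.24-fold fall. Has2 introns fell 2.91-fold, and Has2os lies on the other strand. Klf11, a transcriptional repressor, fell 2.68-fold in exons and 3.65-fold in introns. Per1, a clock repressor, fell 1.77-fold in exons and 2.10-fold in introns.

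Some falls were called in exons but not in introns. Klhl26 had exon levels of 5.42 and 11.5 CPM at 1 h, against 11.3 and 25.7 CPM at 0 h (-1.13 ± 0.16, adjusted p = 0.029). Its intron levels were 149 and 219 CPM at 1 h and 138 and 210 CPM at 0 h, and its ratio fell by 1.22 on the log2 scale (adjusted p = 0.00174). Pag1, an adaptor that recruits the kinase Csk, fell 1.88-fold in exons, with an intron change of -0.12 ± 0.07 that did not pass (adjusted p = 0.228) and a ratio lower by 0.79 (adjusted p = 0.00282).

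Some deep precursor falls came without a called change of mature RNA at 1 h. Pcdh10, a protocadherin, had intron levels of 2.04 and 4.41 CPM at 1 h, against 23.8 and 39.7 CPM at 0 h, which is 9.54-fold lower (adjusted p = 1.82e-06). Its exon levels were 8.23 and 13.3 CPM at 1 h and 10.5 and 13.2 CPM at 0 h, with no called change (-0.12 ± 0.18, adjusted p = 0.836). The ratio of exon to intron reads of Pcdh10 rose by 3.14 ± 0.28 on the log2 scale (adjusted p = 0.000202). At 3 h its exon levels were 2.80 and 3.24 CPM, at 6 h 0.781 and 1.96 CPM and at 9 h 0.854 and 1.78 CPM. Eif2ak2 (PKR), the kinase activated by double-stranded RNA, also fell in introns (-1.50 ± 0.11, adjusted p = 9.8e-06) and not in exons (-0.11 ± 0.18, adjusted p = 0.855). Its introns had 10.0 and 16.3 CPM at 1 h, against 30.0 and 45.7 CPM at 0 h, and its exons 28.3 and 46.9 CPM at 1 h and 33.9 and 48 CPM at 0 h.

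Others with deep falls had too few exon reads to be tested. 8430419K02Rik had intron levels of 0.418 and 0.416 CPM at 1 h, against 6.70 and 6.02 CPM at 0 h, 14.9-fold lower (adjusted p = 1.75e-05). 0610010O12Rik fell 9.82-fold in introns. Adh1, an alcohol dehydrogenase, fell 4.62-fold and Epm2a, the glycogen phosphatase laforin, 4.6-fold. Tmem132b had 2.72 and 3.08 CPM at 1 h, against 12.8 and 11.4 CPM at 0 h, and its intron levels stood at 10.3 and 28.3 CPM at 9 h. Nox1, an NADPH oxidase, fell 3.2-fold in a span that overlaps Arl13a and Cstf2 on the other strand and Xkrx on its own.

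Precursors of NRF2 targets, the antioxidant genes, fell more often than they rose: 9 of 19 fell and 2 rose, with a median log2 change of -0.20 and 0 of 19 called in exons. At an unadjusted p under 0.05, 1 was higher and 1 lower in exons, DESeq2 called 0, and 1 was called higher without the warming sample of 3, 6 or 9 h. Nqo1, a quinone reductase, had intron levels of 5.02 and 31.1 CPM at 1 h, against 11.9 and 90.5 CPM at 0 h (-1.48 ± 0.17, adjusted p = 0.000171). The level of Nqo1 differed between the series by far more than between times, with exon levels of 57.2 and 537 CPM at 1 h and 60.6 and 542 CPM at 0 h. Gsta4, a glutathione transferase, fell 1.80-fold in introns. Hmox1, heme oxygenase 1, was one of the genes that rose, by 1.87-fold. With introns scaled by the exon size factors 6 genes of the list fell and 1 rose, and with DESeq2 5 fell and 1 rose.

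SR proteins and LUC7L splicing factors fell in introns in 8 of 17 cases and rose in none, with a median of -0.21, and this count was 4 with DESeq2 and 4 with introns on the exon size factors. Srsf5 had 215 and 157 CPM in exons at 1 h, against 325 and 266 CPM at 0 h (-0.67 ± 0.10, adjusted p = 0.0398), and was the one gene of the list called in exons. That exon count was 0 without the cooling sample of 3 h, and 3 higher and 1 lower without the warming sample of 3, 6 or 9 h. Tra2a had 142 and 115 CPM in introns at 1 h, against 205 and 181 CPM at 0 h, and its ratio of exon to intron reads rose by 1.02 (adjusted p = 0.013). Of the TGF-beta and BMP feedback genes, 5 of 11 fell in introns, among them the inhibitory Smad6 and Smad7, and Skil fell 1.48-fold in exons. In exons 1 of 13 genes of that list fell, against 0 without the cooling sample of 3 h and 5 without the warming sample of 3, 6 or 9 h. Fbn1, which encodes the matrix protein fibrillin 1, had 306 and 313 CPM in introns at 1 h, against 546 and 500 CPM at 0 h, a 1.65-fold fall.

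Cirbp, the cold-inducible RNA-binding protein of the study's title, had intron levels of 13.6 and 8.77 CPM at 1 h, against 19.7 and 15.7 CPM at 0 h (-0.67 ± 0.15, adjusted p = 0.00697). Its exon levels were 62.5 and 50.5 CPM at 1 h, against 83.9 and 76.6 CPM at 0 h, lower in both series without passing the test (-0.50 ± 0.28, adjusted p = 0.497). The change of its exon-to-intron ratio at 1 h was 0.17 ± 0.38 (adjusted p = 0.821). Rbm3, another RNA-binding protein induced by cold, had 35.4 and 24.6 CPM in introns at 1 h, against 17.4 and 15.5 CPM at 0 h, a 1.78-fold rise, and an exon change of 0.11 ± 0.11 (adjusted p = 0.729). Its ratio fell by 0.72 (adjusted p = 0.0218), and Rbm3os lies on the other strand. Of the 9 measured genes of the cold-linked list, 4 fell and 1 rose in introns.

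Of all genes tested in introns 14.7% rose and 15.2% fell, and the counts of the lists that follow are to be read beside these shares. Cholesterol synthesis genes rose in introns in 5 of 23 cases and fell in 1, among them Dhcr7 with a 1.82-fold rise. The count that rose was 13 of 23 without the warming sample of 3 h and 9 without that of 9 h. Several other lists gave small counts. Among clock genes 2 of 16 rose and 4 fell in introns, among hypoxia and glycolysis genes 3 of 19 and 4, among NF-kB and chemokine genes 2 of 14 and 1, among CLK, DYRK and SRPK kinases 2 of 9 and 2, among fibroblast matrix genes 1 of 21 and 3, and among ribosomal protein genes 2 of 43 and 3. Ccl2, a chemokine, rose 2.33-fold in introns. Without the warming sample of 3 h, 4 NF-kB and chemokine genes rose and 6 matrix genes fell in introns, and without that of 6 or 9 h 4 and 5. In exons 5 NF-kB and chemokine genes were called higher and 3 clock genes lower without any one of these 3 samples, against 0 and 1 with all. Clock genes called higher in exons numbered 1 without the sample of 3 h and 2 without that of 6 or 9 h, against 0 with all. Mitosis genes had a median exon change of 0.32 and 24 of 28 were higher in both series, where 3077 of all 11272 genes were, but 0 of 28 passed. Of these 9 were higher at an unadjusted p under 0.05, and 0 were called with DESeq2 and 19 without the warming sample of 3, 6 or 9 h. Of 27 replication-dependent histone genes 0 were called in exons, 5 were lower at an unadjusted p under 0.05 and 1 was called lower by DESeq2. Without the warming sample of 3, 6 or 9 h 7 were called lower, and without that of 3 or 6 h 1 was called higher. In both series 10 were lower and 2 higher, where 3807 and 3077 of all 11272 genes were.

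The ratio of exon to intron reads fell for 663 of 10273 genes and rose for 466. It was tested in one fit that takes both kinds of read of a sample as independent. Among genes where it fell are some whose precursor rose with a smaller or no called change of mRNA, such as Acta2, Tpm1 (-1.48 ± 0.11, adjusted p = 3.69e-05) and Hsp90b1 (-0.90 ± 0.10, adjusted p = 0.000471), and others, Klhl26 and Pag1, whose mRNA fell without a called change of precursor. Among genes where it rose are some whose precursor fell without a called change of mRNA, such as Pcdh10, Eif2ak2 (1.39 ± 0.24, adjusted p = 0.00497) and Nqo1 (1.47 ± 0.21, adjusted p = 0.00189). For Ccdc117, Cyr61 and Atf3, whose exon reads rose about as much as their intron reads, the change did not pass (0.19 ± 0.15, -0.04 ± 0.15 and -0.05 ± 0.36). The number of ratio calls was 706 with DESeq2, 733 without the cooling sample of 3 h and 23 with 3 to 9 h as one level, and with introns on the exon size factors the ratio fell for 602 genes and rose for 258.

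The first hour of cooling, which shares no sample with warming, moved many of the same precursors the other way. By adjusted p alone, cooling raised intron reads of 1658 genes (14.2%) and lowered those of 1685 (14.4%). Warming calls also needed both series to move alike, which kept 3490 of 3532 genes. Of the 1715 genes that rose in warming introns 992 fell in cooling, which is 57.8% of the first list and 58.9% of the second. Of the 1775 that fell in warming 1015 rose in cooling, 57.2% and 61.2%. Moves in the same direction in both courses were called for 20 genes higher and 7 lower. Across 11696 genes the changes correlated with r = -0.70. The warming minus cooling difference in introns was called higher for 2564 genes (21.9%) and lower for 2545 (21.8%). In exons 1 gene was called in cooling (0.00887%), and the difference was higher for 129 genes (1.14%) and lower for 96 (0.852%). Of the 82 genes called in exons in warming, the difference was called for 72. It contains the same warming change that selected them, so this overlap is no separate evidence.

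List values in cooling stand beside those in warming as follows. Heat shock genes had a median intron change of 1.01 in warming and -0.42 in cooling, with 22 of 36 lower in cooling, and p53 targets 0.58 and -0.60, with 13 of 17 lower. SRF targets had 0.90 in warming and -0.05 in cooling, with 2 of 20 higher and 3 lower in cooling. The difference between courses, which contains the same warming change, was called for 18 of 20. Acta2 changed in introns by 1.35 ± 0.07 in warming and -0.22 ± 0.07 in cooling, and Myl9 by 2.10 ± 0.26 in warming and -0.03 ± 0.43 in cooling. Hsph1 changed by 2.13 ± 0.07 in warming and -1.46 ± 0.07 in cooling. Pcdh10 stood at the other end, with -3.25 ± 0.19 in warming and 2.82 ± 0.23 in cooling.

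**Figure D4:**
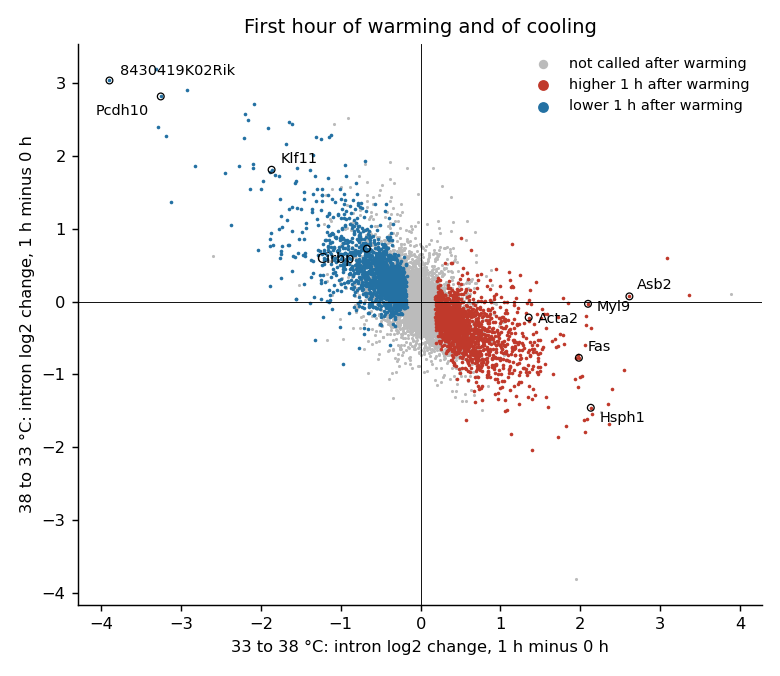
Intron log2 change in the first hour of warming from 33 to 38 °C (x axis) and of cooling from 38 to 33 °C (y axis) for 11696 genes, coloured by the call in warming. Points run from upper left (Pcdh10, 8430419K02Rik) to lower right (Hsph1), with r = -0.70, while Asb2, Myl9 and Acta2 lie near 0 on the cooling axis.

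The called genes were also compared by intron length. Length is not independent of the calls, because CPM is not divided by it and longer introns can gather more reads. The median intron level was 49.3 CPM for genes that rose and 47.3 CPM for genes that fell, against 34.6 CPM for all tested. The median summed intron length was 23.4 kb for genes that rose, 34.3 kb for genes that fell and 21.5 kb for all tested. With genes ranked by that length and cut into 4 equal groups, in the group with the shortest introns (up to 8.11 kb) 12.6% rose and 6.16% fell, with a median log2 change of 0.04. In the group with the longest (from 54.0 kb) 14.7% rose and 22.9% fell, with a median of -0.06. In cooling the order of the medians was the other way, -0.05 in the group of shortest introns and 0.02 in that of longest. In exons the median was 6.37 kb for the 53 genes that rose, 16.0 kb for the 29 that fell and 17.9 kb for all tested. Of genes called in introns, 57.9% of those that rose and 58.6% of those that fell overlap another gene, against 56.7% of all tested.

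The later samples of the course show how long these changes stood, and share the 0 h sample with the first hour. For the medians over time, the log2 (CPM + 1) of both series was averaged. In introns the SRF list had a median of 0.90 at 1 h, 0.08 at 3 h, -0.27 at 6 h and -0.26 at 9 h, and in exons -0.02, -0.07, -0.23 and -0.39 at those times. The heat shock list had 1.01, 0.58, 0.39 and 0.36 in introns, and 0.33, 0.65, 0.69 and 0.54 in exons. ER chaperones had 0.53, 0.59, 0.26 and 0.22 in introns, and 0.08, 0.46, 0.44 and 0.32 in exons. Medians over all genes tested stayed between -0.01 and 0.07. Acta2 had intron levels of 266 and 120 CPM at 3 h, and of 73.6 and 41.9 CPM at 9 h, where each series was below its value at 0 h, and its exon levels at 9 h were 1068 and 644 CPM.

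**Figure D5:**
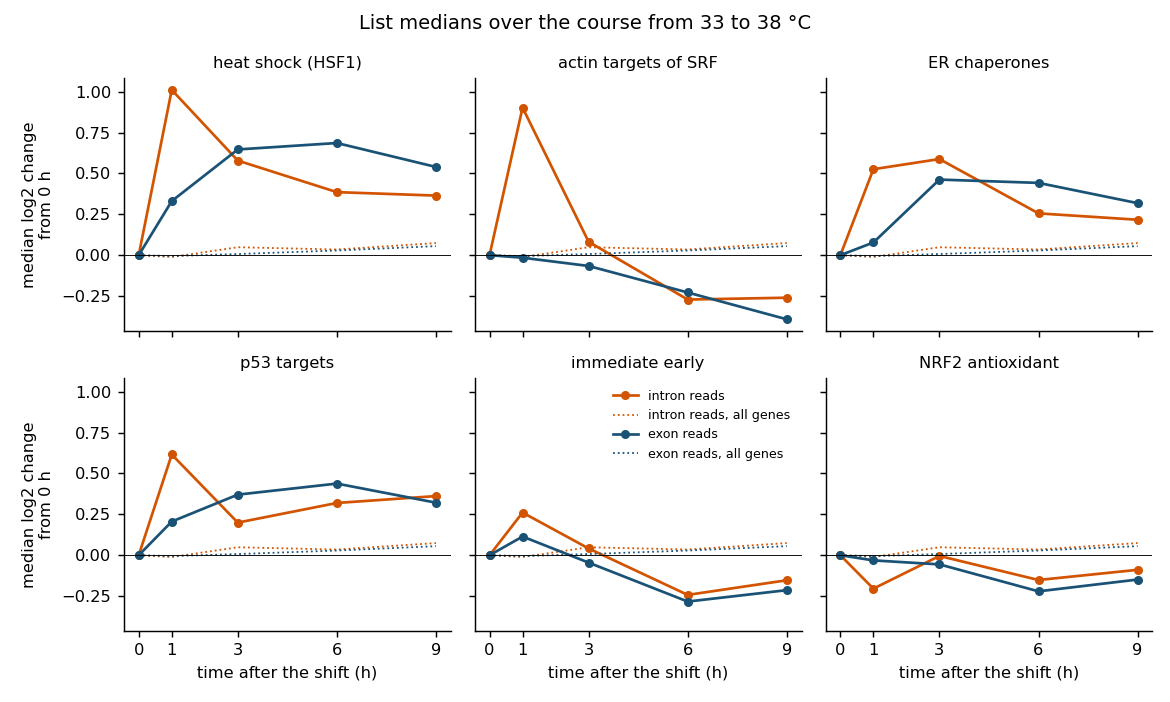
Median log2 change from 0 h over 6 gene lists at 0, 1, 3, 6 and 9 h after the move from 33 to 38 °C, for intron reads (orange) and exon reads (blue), with dotted lines for all genes tested. Intron medians of the heat shock and SRF lists were highest at 1 h (1.01 and 0.90), and the exon median of the heat shock list at 6 h (0.69).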

How the data were processed

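Total RNA of wild-type NIH3T3 cells, cleared of DNA and ribosomal RNA, went into stranded paired-end libraries, per the labels' protocols. STAR, bedtools and the build mm10 are named without versions in the submitters' processing notes. The annotation, the handling of shared reads and any use of strand in counting were each not given in the sources used here. As deposited by the authors, the tables hold estimated counts per gene for exons and introns, although their names speak of RPKM, and the values were rounded to whole numbers. One sample's title mistypes a temperature, and its description places it at 0 h of the course from 33 to 38 °C. Columns map to samples by name, and 0 columns were left without one. A further series of the cooling course was not used.

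CPM is the count per 1000000 of the column total. Genes with a mean of at least 1 CPM over the 20 complete columns of a kind were tested. Both columns of a sample were summed to 1 sample, with an offset for each gene that allows for how much each series contributed. The test was edgeR 4.0.16 (R 4.3.3), quasi-likelihood with TMM scaling, with a level of its own for 0 h and for 1 h in each course and, for 3, 6 and 9 h, a straight line in log2(h + 1), which leaves 2 residual degrees of freedom before moderation. The samples at 0 and 1 h are assumed to vary like the later ones. Benjamini-Hochberg adjustment of p-values ran over all genes of a fit, and each standard error was taken as the unsigned log2 change divided by √F. The exon-to-intron ratio is exon minus intron change in one fit. There the exon and intron sums of a sample enter as separate libraries, so their pairing is not modelled. Its p-values assume that both kinds of read vary independently and share one spread per gene. The residual degrees of freedom of both kinds add up in that fit. Direction in each series used log2 (CPM + 1). Coordinates and overlaps come from GENCODE M21, in which 95.3% of genes were found by identifier. Alternatives were RLE scaling, column totals, no filter, DESeq2 1.42.0, no offset, either pair of series alone, one level for 3 to 9 h, introns on exon size factors, and leaving out each later sample.

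The genes and the 27 lists (20 processes, 7 cell type markers) were chosen with earlier results of these data known. Named are the 10 genes per direction and kind of read with the largest smaller change of both series, up to 4 per list, and Cirbp and Rbm3. Genes ranked by that change were picked for agreement of the series, which is therefore no separate evidence for them. Other list members given values, such as Hspa1a, Hsp90aa1, Bag3, Chordc1, Hspa8, Vcl, Hspa5, Arc, Mdm2 and Cdkn1a, were chosen after their values were seen.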

Additional observations from a re-analysis of the deposited data

How the results depend on the processing

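For the genes named by rule, no exon or intron change turned its sign where the main or the alternative fit gave an adjusted p under 0.05. Changes without such a p, ratio changes of named genes, and list members chosen after their values were seen were not part of this check. Beyond the named genes, of the 3532 genes with an adjusted p under 0.05 in introns, whether or not both series moved alike, 39 had the other sign with series 2 and 5 alone and 12 with series 11 and 13 alone. Of the 5109 warming minus cooling calls in introns it was 34 and 45, and of the 1129 ratio calls 1 and 0. The genes named by rule had 119 exon or intron changes with an adjusted p under 0.05, whether or not both series moved alike. Of these, 83 were lost with 3, 6 and 9 h fitted as one level and 42 with series 2 and 5 alone. The number lost was 19 with DESeq2, 10 with series 11 and 13 alone and 8 without the cooling sample of 3 h. It was 3 with introns on the exon size factors, 2 with RLE scaling and 1 without the offset. The causes were not tested. Exon calls numbered 82, against 133 with column totals, 678 with no filter (23225 genes tested), 135 with DESeq2, 28 with series 2 and 5 (78.6% of them higher, against 64.6%), 218 with series 11 and 13, and 0 with one level (459 at an unadjusted p under 0.05). Intron calls numbered 3490, against 1723 with DESeq2, 1440 with series 2 and 5, 2318 with series 11 and 13 and 448 with one level. Ratio calls numbered 1129, against 706, 131, 668 and 23 under the same alternatives, and with introns on the exon size factors 30% of them were higher, against 41.3%. Calls of warming minus cooling in introns numbered 5109, against 3099 with DESeq2 and 1772 with one level. Genes past 1.5-fold in both series numbered 704 over both kinds of read, against 340 with a pseudocount of 5, 1058 with a pseudocount of 0.1 and 137 at 2-fold. Leaving out one later sample gave 46 to 763 exon calls, 3301 to 4276 intron calls, 733 to 1335 ratio calls and 4934 to 5860 calls of the difference. Each such fit takes its spread from the other course alone. No analysis paired by numbered series was run. The labels do not say what the series stand for, and both columns of a sample were summed to 1 sample. Genes with few reads, such as Creld1 and 8430419K02Rik, carry counting error that the CPM values do not show.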
